A study of Rattus norvegicus with 6 samples.

Results

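Aquaporins are membrane channels for water, and a subgroup of them, the aquaglyceroporins, also carries glycerol and other small uncharged solutes. The account covers Aqp1, Aqp3, Aqp5, Aqp7, Aqp8, Aqp9 and Aqp11, which are 7 of the 15443 genes named on the arrays. The family was taken by the RefSeq accession of its probes, with no measured value in the rule, and each gene was read by 1 probe. The fibrosis group was 3 rats with hepatic fibrosis induced by bile duct ligation (BDL), an operation that stops bile from leaving the liver. The normal group was 3 rats whose liver tissue the labels call normal. Total RNA from blocks of liver tissue was hybridised to 1 single-colour Agilent array per sample. The labels do not say which rat a sample came from, and each sample was taken as 1 rat. Strain, sex, age, the time since ligation and whether the normal rats had a sham operation are not given in the sources used here.

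In the liver, water follows osmotically active solutes into bile across the hepatocyte's canalicular membrane and across the bile duct epithelium. In the rat, Aqp8 sits in hepatocyte vesicles that reach the canalicular membrane, Aqp9 takes up glycerol at the sinusoidal membrane for glucose and lipid synthesis, and Aqp1 and Aqp4 line the apical and basolateral sides of cholangiocytes, the duct epithelial cells. Aqp1 is also abundant in red blood cells and in vascular endothelium. Aqp3 and Aqp7 are the other aquaglyceroporins in this set, and Aqp11 is a divergent aquaporin of the endoplasmic reticulum.

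Signals are given as log2 of the processed signal minus the log2 of that array's 75th percentile signal, so 0 is the 75th percentile and a step of 1 is a 2-fold change. Levels of different probes are not comparable on this scale, only the same probe between arrays. The 75th percentile signal was 4840 to 6401 on the fibrosis arrays and 3755 to 4386 on the normal arrays. Between 68.8% and 78.0% of spots were well above background on the fibrosis arrays, against 67.2% to 70.0% on the normal arrays. The scanner software marked 18.8% to 33.0% of spots on the fibrosis arrays, and 24.0% to 35.2% on the normal arrays, as non-uniform or as population outliers. All 14 hepatocyte marker genes were detected on all 6 arrays, and 8 of 10 stellate cell and myofibroblast markers were called higher in fibrosis. That last count was 5 of 9 without normal replicate 1 or 2, 6 of 10 without normal replicate 3, 4 of 6 without fibrosis replicate 1, 4 of 7 without fibrosis replicate 2 and 5 of 10 with the slide row as a block.

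Marked spots were left out wherever the probe could still be tested. That held for Aqp1, with 2 of 60 spots marked, for Aqp3, with 1 of 60, and for Aqp5, with 0 of 12. Marked spots were 4 of 12 for Aqp7, 8 of 12 for Aqp9, 8 of 12 for Aqp11 and 12 of 12 for Aqp8, which left too few arrays, so these 4 genes are given with marked spots kept. The genes of the lists below followed the same rule, and the summed signals of the lists were computed with marked spots kept. A probe was called at an adjusted p under 0.05 by limma, with Benjamini-Hochberg adjustment over all tested probes.

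Aqp7 and Aqp1 were higher in fibrotic liver, and Aqp11 and Aqp9 were lower. With marked spots kept all 7 probes were tested, and 4 were called, 2 higher and 2 lower. Among all 19731 probes tested that way, 19.1% were called, 12.4% higher and 6.79% lower. With marked spots left out, 3 of the 7 were tested and Aqp1 alone was called, against 20.0% of 12620 probes called, 15.2% higher and 4.83% lower. The fibrosis and normal arrays did not overlap for 6 of the 7 genes, 3 higher and 3 lower, with marked spots kept. Of all probes tested that way, 38.4% did not overlap, 19.1% higher and 19.3% lower. With marked spots left out, Aqp1 and Aqp5 did not overlap, both higher, as for 38.3% of all probes in either direction and 23.8% in that direction. In tissue blocks, a change in how many cells of a type were present and a change in RNA per cell cannot be told apart.

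**Figure D1:**
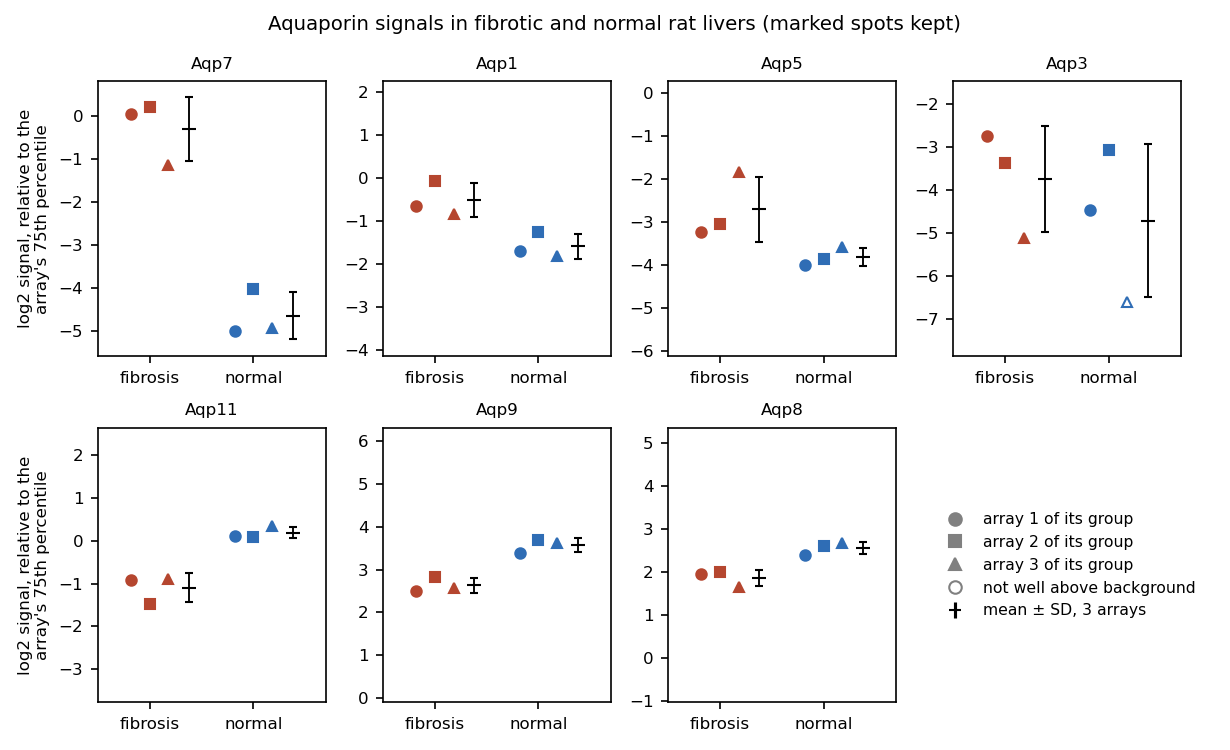
Level of each aquaporin probe on every array, as log2 of the signal relative to the array's 75th percentile; fibrosis arrays are left and normal arrays right in each panel, marked spots are kept throughout, bars are the mean and SD of 3 arrays, and an open symbol is not well above background. Among the 7 genes Aqp7 has the widest gap between groups, 2.87, and Aqp3 alone overlaps.

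**Figure D2:**
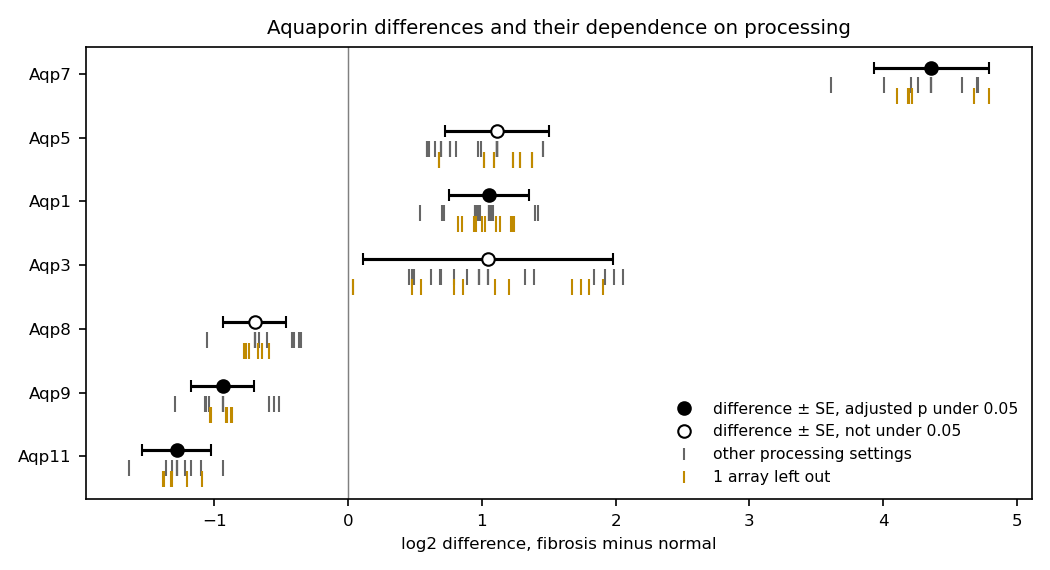
Difference between fibrosis and normal (log2, fibrosis minus normal) for each aquaporin probe as a point with a bar of 1 standard error, filled where called, and ticks for the alternative settings and for 1 array left out. Aqp7 lies at 4.36, Aqp1, Aqp3 and Aqp5 lie near 1, and Aqp8, Aqp9 and Aqp11 lie below 0.

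Of the aquaglyceroporins, Aqp7 rose, Aqp9 fell and Aqp3 was not called. Aqp7, the glycerol channel of fat cells that is also expressed in kidney and testis, had levels of 0.05, 0.22 and -1.15 in the fibrosis arrays, against -5.0, -4.02 and -4.94 in the normal arrays. The 3 fibrosis livers all lay far above the 3 normal livers. The mean was -0.29 ± 0.74 in fibrosis and -4.65 ± 0.55 in normal liver (SD, n = 3 each). The limma difference was 4.36 with a standard error of 0.43, a 20.5-fold higher signal, with an adjusted p of 0.000373. Its size exceeded that of 99.3% of all tested probes. Both spots were unmarked on fibrosis array 1, the array at 0.05, and both were marked on fibrosis arrays 2 and 3. The call held in all 17 alternative settings run, from 3.61 under normexp background correction to 4.79 without fibrosis replicate 3.

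Aqp9, the glycerol and urea channel of the hepatocyte's sinusoidal membrane, had levels of 2.51, 2.82 and 2.56 in fibrosis, against 3.39, 3.70 and 3.61 in normal liver. Every fibrosis liver lay at least 0.56 below every normal liver. The mean was 2.63 ± 0.17 in fibrosis and 3.57 ± 0.16 in normal liver (SD, n = 3 each). The difference was -0.94 with a standard error of 0.23, so the signal was 1.91-fold lower, with an adjusted p of 0.0262 by limma. Fibrosis array 1 at 2.51 and normal array 1 at 3.39 were the only arrays with unmarked spots for it. The call was lost in 9 of 17 alternatives, among them quantile normalization (-0.55, adjusted p = 0.122 by limma), cyclic loess (-0.51), scaling to the E1A control probes (-0.59) and the slide row as a block (-1.06, adjusted p = 0.142 by limma). It was also lost without normal replicate 1, 2 or 3 and without fibrosis replicate 1, with adjusted p of 0.0583 to 0.121 by limma.

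Aqp3, an aquaglyceroporin of kidney collecting duct and of many epithelia, had levels of -2.73, -3.36 and -5.12 in fibrosis, against -4.47, -3.06 and -6.80 in normal liver. The arrays varied widely within both groups and the groups overlapped. The probe did not pass as above background on normal array 3, where 1 of its 10 spots did, marked ones counted. The difference was 1.05 with a standard error of 0.94 and an adjusted p of 0.490 by limma. No difference beyond the spread between arrays was shown. Without normal replicate 3 the difference was 0.03.

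The genes of glycerol handling that passed the test were lower in fibrosis. Of 13 on the array, 11 were tested, 0 were called higher and 4 were called lower, with a median difference of -0.88 beside a median of -0.01 over all probes tested without marked spots and -0.10 with them. Of those 11, 4 were tested only with marked spots kept. Mgll, which releases glycerol from monoacylglycerol, differed by -1.87 with a standard error of 0.38 and an adjusted p of 0.0118 by limma. G6pc1, the last enzyme of glucose synthesis, differed by -1.43 with a standard error of 0.27 and an adjusted p of 0.00796 by limma. Gpd1, which interconverts glycerol 3-phosphate and dihydroxyacetone phosphate, differed by -1.33 with a standard error of 0.26, and Fbp1, another enzyme of glucose synthesis, by -0.88 with a standard error of 0.24. The call of Mgll was lost without normal replicate 3 (-1.68, adjusted p = 0.0578 by limma) and with E1A scaling, and the slide row as a block ended the calls of all 4 genes. The call of Gpd1 was lost in 4 of 17 alternatives, the others being quantile normalization, cyclic loess and E1A scaling. The call of Fbp1 was lost in 10 of 17, among them the fits without normal replicate 1, 2 or 3 and without fibrosis replicate 1 or 3. Gk, the glycerol kinase that acts after Aqp9, differed by -0.73 with an adjusted p of 0.168, and its level rests on 2 arrays per group. The list's summed signal, as a percent of the 75th percentile, was 4076 to 4627 in fibrosis and 7924 to 8262 in normal liver. The count of lower calls ranged from 0 with the slide row as a block to 6 with array median scaling, and was 2 of 9 without normal replicate 3.

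Aqp1 is the main water channel of the duct epithelium's apical side in the rat. Its level was -0.64, -0.07 and -0.89 in fibrosis, against -1.69, -1.26 and -1.82 in normal liver. The lowest fibrosis array lay 0.37 above the highest normal array. The mean was -0.54 ± 0.42 in fibrosis and -1.59 ± 0.29 in normal liver (SD, n = 3 each), and the 10 spots of an array differed by an SD of 0.08 to 0.15. The difference was 1.05 with a standard error of 0.30, a 2.08-fold higher signal, with an adjusted p of 0.0417 by limma. That call was lost in 18 of 35 alternatives, including quantile normalization at 0.54 and an adjusted p of 0.638, array median scaling at 0.70, no filter on dim probes, and the slide row as a block at 0.95. It was lost without normal replicate 1, 2 or 3, without fibrosis replicate 1 and without fibrosis replicate 2, with adjusted p of 0.0631 to 0.166 by limma, and held without fibrosis replicate 3 at 1.23. The direction was positive in all 35. Without marked spots, the quantile fit gave the tested Aqp4 and Aqp12a probes the same standard error of 0.58, which limits the reading of its adjusted p.

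Aqp5, a channel of salivary, lacrimal and airway glands, had levels of -3.22, -3.05 and -1.84 in fibrosis, against -4.01, -3.86 and -3.58 in normal liver. Fibrosis array 3 stood above the other two fibrosis arrays. The groups did not overlap, but the difference of 1.11 with a standard error of 0.39 had an adjusted p of 0.0813 by limma and was not called. It passed only with scaling to the E1A control probes, at 1.46, and was 0.68 without fibrosis replicate 3.

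Aqp8, the hepatocyte's canalicular and mitochondrial water channel, had levels of 1.96, 1.99 and 1.65 in fibrosis, against 2.40, 2.62 and 2.67 in normal liver. Here too the groups did not overlap, the difference was -0.70 with a standard error of 0.23, a 1.62-fold lower signal, and the adjusted p of 0.0754 by limma did not pass. It passed with array median scaling (-1.05), with trend and robust estimation and with array weights (-0.66). All of its spots were marked, so no array gave an unmarked value.

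Aqp11, the aquaporin of the endoplasmic reticulum, had levels of -0.91, -1.48 and -0.90 in fibrosis, against 0.12, 0.10 and 0.34 in normal liver. The groups lay 0.99 apart. The mean was -1.10 ± 0.33 in fibrosis and 0.18 ± 0.13 in normal liver (SD, n = 3 each), and the difference of -1.28 with a standard error of 0.26, a 2.43-fold lower signal, had an adjusted p of 0.0109 by limma. The call was lost in 3 of 17 alternatives, with scaling to the E1A control probes (-0.94), with the slide row as a block (-1.10) and without normal replicate 3 (-1.20, adjusted p = 0.0639 by limma).

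**Figure D3:**
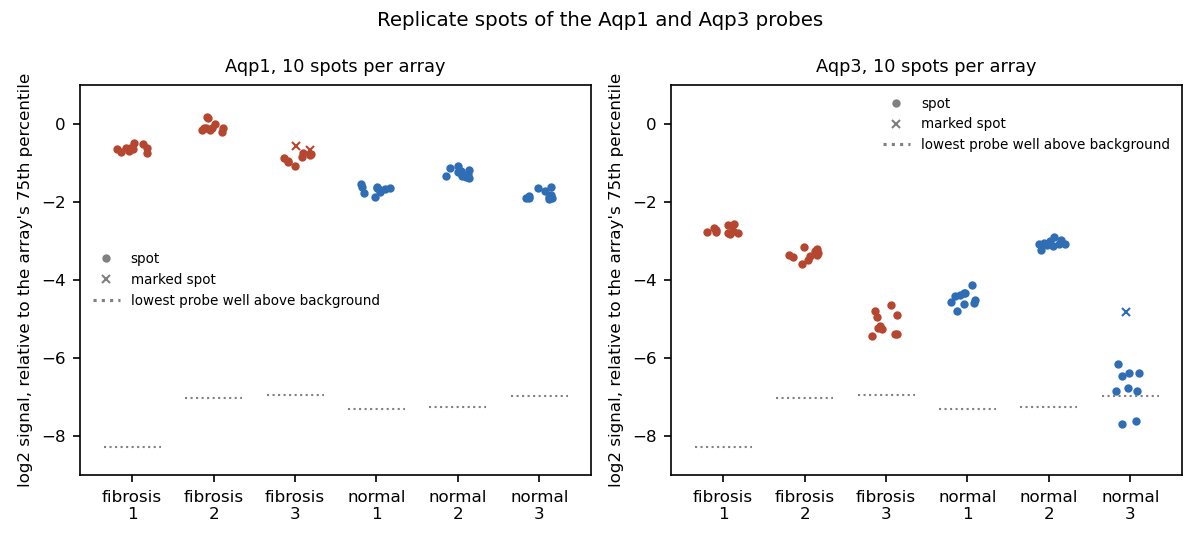
Every spot of the Aqp1 and Aqp3 probes on each array as log2 of the signal relative to the array's 75th percentile, with dotted lines at the lowest level of any probe well above background. The Aqp1 spots of an array lie close together, and the Aqp3 spots of normal array 3 scatter widely with 1 of 10 well above background.

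The 250 bases before the RefSeq start are printed for the called genes that have a window in RefSeq's promoter table (GRCr8), so that their base make-up can be read beside the direction of change. Capitals mark matches, on either strand, to the TATA box TATAAA, to the CAAT box CCAAT, to the GC box GGGCGG, to the nuclear receptor motif AGGTCA and to the HNF1 motif GTTAAT. A match describes letters and is not evidence of binding.
Aqp1 (chr4:85812534-85812783, plus strand): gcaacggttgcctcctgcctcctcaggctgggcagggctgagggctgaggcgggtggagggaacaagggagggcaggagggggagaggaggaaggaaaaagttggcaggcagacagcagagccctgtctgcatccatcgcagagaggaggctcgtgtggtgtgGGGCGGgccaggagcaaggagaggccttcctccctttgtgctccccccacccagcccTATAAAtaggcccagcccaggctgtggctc
Aqp9 (chr8:80718189-80718438, minus strand): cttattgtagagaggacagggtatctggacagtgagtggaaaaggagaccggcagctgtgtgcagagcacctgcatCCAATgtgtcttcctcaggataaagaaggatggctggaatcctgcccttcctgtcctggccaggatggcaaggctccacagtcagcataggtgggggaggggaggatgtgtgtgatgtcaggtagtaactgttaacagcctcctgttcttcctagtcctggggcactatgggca
Aqp11 (chr1:161467919-161468168, minus strand): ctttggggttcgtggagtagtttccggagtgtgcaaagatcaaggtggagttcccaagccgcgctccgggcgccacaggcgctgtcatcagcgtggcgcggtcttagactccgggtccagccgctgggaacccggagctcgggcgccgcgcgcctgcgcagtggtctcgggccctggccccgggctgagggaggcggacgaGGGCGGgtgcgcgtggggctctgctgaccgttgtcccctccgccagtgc
The Aqp1 window, of a gene with higher signal in fibrosis, held a GC box at bases -87 to -82 and a TATA box at bases -30 to -25. In the Aqp11 window, of a gene with lower signal, a GC box lay at bases -49 to -44. The Aqp9 window, also of a gene with lower signal, held a CAAT box at bases -174 to -170. Among all 33469 windows of this length, 12.9% held a TATA box, 34% a CAAT box, 30.5% a GC box, 14.1% the nuclear receptor motif and 6.45% the HNF1 motif. GC content was 65.2% for Aqp1, 70.8% for Aqp11 and 54.0% for Aqp9, beside a median of 51.2% over all windows, and the CpG count was 5, 28 and 1 in the same 3 windows. Of the 7 members, 6 matched this table. In RefSeq's order of protein-coding genes Aqp7 and Aqp3 are neighbours on chromosome 5. Their differences of 4.36 and 1.05 were not tested against each other.

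Of the other aquaporins, 5 are on the array and 2 were tested, of which 1 was called higher. Aqp4, the water channel of the basolateral side of cholangiocytes, was read by 3 probes, which gave different results. Its probe A_44_P561166 had levels of -1.39, -1.75 and -2.48 in fibrosis, against -8.16, -6.68 and -7.39 in normal liver. On normal arrays it was not well above background. With the main processing the signal was at least 34.6-fold higher in fibrosis, and the adjusted p was 0.000129 by limma. The bound sets the mean of the fibrosis arrays against the mean, over normal arrays, of the higher of the probe's own signal and the lowest signal well above background there. The bound, 5.11 in log2, holds for the main processing only. With normexp the difference of this probe was 3.35, below the bound, against 5.53 with the main processing. A second probe, A_64_P018751, which stood for the gene in the list because its mean was highest, had levels of -4.03, -3.43 and -5.29 in fibrosis, against -4.55, -4.71 and -4.91 in normal liver. Its difference of 0.47 with a standard error of 0.45 was not called, but was 0.99 with an adjusted p of 0.0473 by limma without fibrosis replicate 3. The third, A_64_P036063, was above background in 2 of the 3 fibrosis arrays and in 0 normal arrays, so it was not tested under the main rule. It was called higher with no filter on dim probes (1.89, adjusted p = 0.0461 by limma) and without fibrosis replicate 3 (2.43, adjusted p = 0.00199 by limma). Aqp12a, an aquaporin of pancreatic acinar cells, had levels of -2.86, -3.65 and -3.29 in fibrosis, against -5.95, -4.99 and -5.56 in normal liver. Its difference of 2.24 with a standard error of 0.33 had an adjusted p of 0.0025 by limma and was 1.35 with normexp. Aqp2 was above background on fibrosis array 1 only, and Aqp6 and Mip on none.

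**Figure D4:**
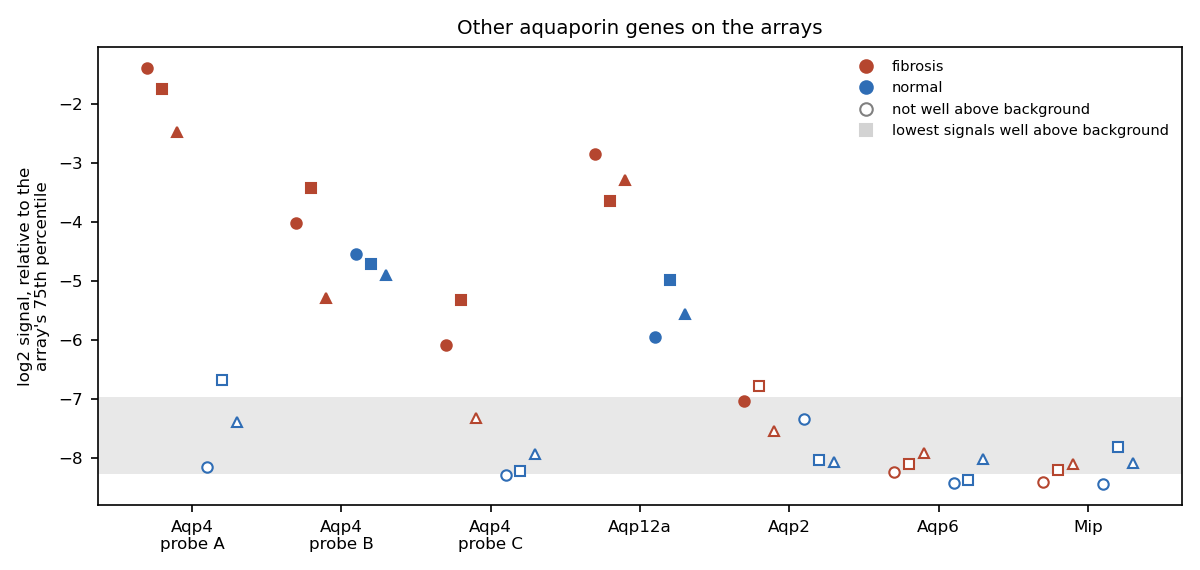
Levels of the other aquaporin probes by array, as log2 of the signal relative to the array's 75th percentile, with fibrosis left of normal, open symbols where a probe is not well above background, and a grey band over the lowest signals well above background. Probes A, B and C of Aqp4 are A_44_P561166, A_64_P018751 and A_64_P036063; probe A and Aqp12a lie above the normal arrays in all 3 fibrosis arrays, and probe B overlaps.

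Of the solute exporters that draw water into bile, and their regulators, 20 were on the array and 17 were tested. Of these, 3 were called higher and 2 lower, and the median difference was 0.42. Of the 17, 4 were tested only with marked spots kept. The higher ones were Sctr, the secretin receptor of duct cells, with 5.47 and a standard error of 0.44, Cftr, the apical chloride channel of duct cells, with 5.19 and a standard error of 0.41, and Ano1, a calcium-activated chloride channel, with 1.68 and a standard error of 0.38. The lower ones were Abcc2, a canalicular exporter of organic anions, at -1.52 with a standard error of 0.37, and Abcb11, the bile salt exporter, at -1.06 with a standard error of 0.24. Abcc2 rests on 2 arrays per group. The call of Abcb11 was lost without normal replicate 1, 2 or 3. Quantile normalization, cyclic loess, E1A scaling and the slide row as a block ended the calls of Abcb11 and Abcc2. Abcc2 also lost its call without normal replicate 2 (adjusted p = 0.0537 by limma). That array held no value for Abcc2, so its difference stayed at -1.52. The call of Ano1 was lost without normal replicate 1 or 3, with quantile normalization and with the slide row as a block. Slc4a2, the anion exchanger that works with Cftr, differed by -0.67 and was not called, and it also rests on 2 arrays per group. The summed signal of this list was 2178 to 2299 in fibrosis and 2232 to 2722 in normal liver.

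Marker lists of the cells that tissue blocks could hold are given by their counts and summed signals, and their part in the aquaporin results was not tested. Tested only with marked spots kept were 12 of 14 hepatocyte, 4 of 10 cholangiocyte and 4 of 7 red blood cell markers. The same held for 3 of 10 stellate cell and myofibroblast, 2 of 6 neutrophil, 2 of 7 macrophage, 2 of 4 fat cell and 1 of 10 endothelial markers. Of 10 tested cholangiocyte markers, 9 were called higher, with a median difference of 4.45. The median was 4.19 with Cdh6, which was dim on all normal arrays, at its bound under the main processing. The lowest Cdh6 difference among the alternatives was 1.73, under that bound of 3.56 in log2. The sum of the list was 1014 to 1330 in fibrosis, against 82.1 to 105 in normal liver. Krt7, a duct keratin, differed by 5.65 with a standard error of 0.53 and was above background on 1 normal array, and Krt19 differed by 3.49. Of 14 hepatocyte markers 0 were called higher and 3 lower, with a median of -0.83 and a sum of 13374 to 16796 in fibrosis, against 23553 to 24442 in normal liver. The lower hepatocyte calls included Apoc3 at -1.05 and Asgr2 at -1.31. Both were lost without normal replicate 2 and without normal replicate 3, and Apoc3 also without normal replicate 1, and E1A scaling and the slide row as a block ended both. The number of lower hepatocyte calls ran from 0 to 11 over the alternatives. Red blood cell markers, relevant for Aqp1, had 1 of 7 tested called lower, Hbb at -0.88, and a sum of 1986 to 3223 in fibrosis, against 3599 to 4272 in normal liver. That Hbb call was lost without fibrosis replicate 1 and without normal replicate 1, 2 or 3, and in 5 other settings. Endothelial markers, also relevant for Aqp1, had 1 of 10 tested called higher, Flt1 at 2.29 (2 fibrosis arrays, lost with quantile normalization). Kdr was at -0.75 without a call, and was called lower in 5 of 17 alternatives, among them array median scaling (-1.11) and normexp (-0.80). The median difference of the list was 0.28, while its sum was 984 to 1236 in fibrosis, against 1313 to 1434 in normal liver. A sum is set mostly by the brightest probes of a list.

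Fat cell markers, relevant for Aqp7, had 1 of 4 tested called higher, Fabp4 at 3.4 with a standard error of 0.33, and Lep and Adrb3 were never above background. Cidec, a lipid droplet protein, differed by -1.50 and was not called, though it was called lower in 5 of 17 alternatives. These were array median scaling, normexp, trend and robust estimation, array weights, and the fit without fibrosis replicate 3 (-1.97). Pparg differed by -1.62 and was called only with quantile normalization and without normal replicate 1. The fat cell list had a median difference of -0.63, and its sum was 588 to 719 in fibrosis and 519 to 603 in normal liver. Pancreatic acinar markers, relevant for Aqp12a, had 0 of 6 tested called in either direction, a sum of 34.1 to 82.7 in fibrosis and 31.8 to 45.6 in normal liver, and Pnlip was never above background. Gland markers, relevant for Aqp5, had 2 of 3 tested called higher, Tff1 and Tff3. The third, Pigr, differed by -0.66, was not called and rests on 2 arrays per group. Tff1 was not well above background on any normal array and, with the main processing, was at least 11.3-fold higher. The lowest Tff1 difference among the alternatives was 1.77 in log2, under that bound of 3.50. Tff3 differed by 2.08 (lost with quantile normalization). The median difference of the list was 2.08, while its sum was 1485 to 2407 in fibrosis and 2473 to 3011 in normal liver. Neutrophil markers had 4 of 6 tested called higher, with Lcn2 at 4.40 and S100a9 at 2.94 and a sum of 860 to 1079 in fibrosis, against 60.4 to 90.6 in normal liver; 2 of 5 were called without fibrosis replicate 1. Macrophage markers had 0 of 7 called, with a sum of 2064 to 2303 in fibrosis and 1415 to 1664 in normal liver. Among the alternatives, 2 were called higher with cyclic loess or normexp and 3 with array weights. Mesothelial markers had 1 of 2 tested called higher, Msln at 7.77 (2 fibrosis arrays, above background on 1 normal array), with a sum of 234 to 385 in fibrosis and 9.70 to 14.2 in normal liver. Genes with the smallest p in their list that were not called were Marco at 1.11 and Cd163 at 1.23 (macrophage), Cela2a at 0.90 and Cpb1 at 1.06 (acinar), Slc4a1 at -1.06 (red blood cell) and Wt1 at -0.51 (mesothelium). Marco, Cd163 and Cpb1 rest on 2 arrays per group. Calls were gained in 2 of 12 alternatives for Marco, 5 of 12 for Cd163, 2 of 16 for Cela2a and 5 of 14 for Slc4a1. Cela2a was called without fibrosis replicate 3, at 1.35. Slc4a1 was called in that fit too, at an unchanged -1.06, since fibrosis replicate 3 held no value for it. Of the stellate cell and myofibroblast markers, Vim differed by 3.12, with values on only 2 arrays of 1 group, and Cygb by 2.99. Their list had a sum of 1115 to 2560 in fibrosis and 307 to 431 in normal liver.

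**Figure D5:**
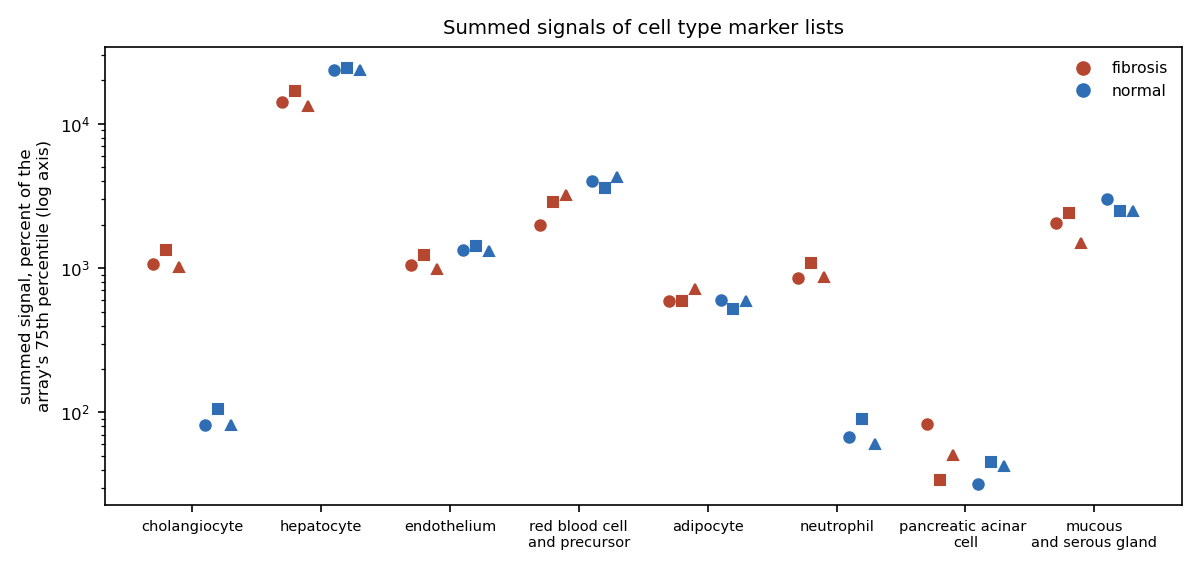
Summed signal of each marker list on each array, as a percent of the array's 75th percentile on a log scale, with the 3 fibrosis arrays left of the 3 normal arrays. Cholangiocyte and neutrophil sums are higher in fibrosis, and hepatocyte, red blood cell, endothelium and gland sums are lower. Fat cell and pancreatic acinar sums overlap.

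The genes whose profile over the 6 arrays lay nearest to each called member were found by root mean square difference among 10864 named genes, with each profile centred on its mean. Nearest to Aqp7 were Plod2, Cxadrl1 and Cpxm2, at distances of 0.24 to 0.25 in log2. Nearest to Aqp9 were Ftcd, Tor1b and Etfb, at 0.06 to 0.08. Nearest to Aqp11 were Tfb2m, Cesl1 and Ppm1k, at 0.07 to 0.10, and nearest to Aqp1 were Myct1, Efs and Rad51ap1, at 0.09 to 0.11. The measure takes in the difference between groups as well as the spread within them, and the points share the 6 arrays.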

How the data were processed

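Total RNA of 3 fibrosis and 3 normal rat livers was hybridised to single-colour Agilent arrays on 1 slide. Each deposited file holds one array's scanner output from Agilent Feature Extraction 11.5.1.1, per the file headers, and the processed signal in it is a background-subtracted intensity. The arrays' design build is not used for coordinates here.

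From the deposited intensity, log2 values minus each array's 75th percentile over the 58717 spots that are no controls were computed, and replicate spots were averaged. Testing needed at least 0.5 of a probe's spots well above background on every array of 1 group that held a value. It also needed values on at least 2 arrays per group. Fibrosis and normal were compared with limma 3.58.1 in R 4.3.3 (lmFit and eBayes), with Benjamini-Hochberg adjustment over all tested probes and a threshold of 0.05. Normexp, an alternative, used the median spot and background signals of the files with an offset of 50, since mean signals are not used here. The fitting step was tested on simulated data.

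The members and the gene lists were chosen with earlier results of these data known. Named genes are all 7 members, up to 2 called genes per direction in each list (where under 2 were called, the smallest p completes the pair), and the 3 genes nearest to each called member. Gpd1, Fbp1, Gk, Ano1, Slc4a2, Krt19, Pparg and Pigr were named beside them after their values were seen. Lists were other aquaporins, glycerol handling, solute exporters and markers of 11 cell types. The labels give the tissue group of each array and do not name the animals, so the replicates were taken as separate rats. The number of arrays limits the precision.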

Additional observations from a re-analysis of the deposited data

How the results depend on the processing

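The count of aquaporin probes called higher, 1 with marked spots left out, became 2 with marked spots kept, 2 with scaling to the E1A control probes, and 0 with quantile normalization, array median scaling, no filter on dim probes or the slide row as a block. Leaving out each replicate in turn gave 0 to 1. With marked spots kept the count of 2 became 1 with quantile normalization, array median scaling, no filter or the slide row as a block, 3 with E1A scaling, and 1 to 2 without each replicate. The count called lower was 0 with marked spots left out and 2 with them kept. That 2 became 1 with quantile normalization, cyclic loess or no filter, 0 with E1A scaling or the slide row as a block, 3 with array median scaling, trend and robust estimation or array weights, and 0 to 2 without each replicate. No setting that was run reversed a direction of a called aquaporin.

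Over all probes, 1915 were called higher and 610 lower with marked spots left out. Quantile normalization gave 773 and 569, array median scaling 1440 and 1678, E1A scaling 2340 and 167, no filter 1705 and 323, the requirement of all 6 arrays above background 862 and 310, array weights 2622 and 1448, and the slide row as a block 972 and 128. Without each replicate they were 1228 to 2149 and 201 to 684. With marked spots kept the counts were 2439 and 1339, and array median scaling gave 1890 and 3884, E1A scaling 2941 and 326, no filter 2242 and 799, array weights 3637 and 3580, and the slide row as a block 1020 and 178. Without each replicate these were 1514 to 2851 and 450 to 1620, the lower calls being 713 without normal replicate 1 and 519 without normal replicate 2. Normexp with marked spots left out gave 1493 and 808. The cause was not tested. Array median scaling moved the median difference of all probes to -0.38, and E1A scaling to 0.34, beside -0.01. Quantile normalization moved it to -0.37 without marked spots, against -0.10 with them. Without marked spots it gave the tested Aqp4 and Aqp12a probes 1 shared standard error of 0.58, against 0.34 to 0.41 with them. It called 773 probes higher, beside 2016 with marked spots kept. The calls of Aqp1, Flt1 and Tff3 lost under it share this limit.

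Slide row 2 held fibrosis arrays only, and row 1 held 1 fibrosis array, so the block leaves that array against the normal ones. Most aquaporins rest on 2 spots per array, Aqp1 and Aqp3 on 10. No paired analysis was possible because the replicate numbers only name the arrays.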
